A study of Mus musculus with 48 samples.

Results

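Transcripts of the lysosome and of its acidifying proton pump were followed in mouse gastrocnemius, the large muscle of the calf, through 35 genes taken by symbol from a deposited count table of 54532 genes. The list was given as names: 15 genes of the proton pump (5 of its membrane sector, 8 of its peripheral sector and 2 accessory proteins), 8 cathepsins, 4 hydrolases or hydrolase activators, 4 membrane proteins, 2 cholesterol exporters and 2 transcription factors of the Tfeb family. All 35 passed the filter on low counts, among 15583 genes tested. The mice had received perfluorooctane sulfonate (PFOS), a persistent fluorinated surfactant, by gavage for 21 days, and 1 library was made per mouse from 48 mice. Both sexes of the genotypes hCYP2B6-Tg and Cyp2b-null were given 0, 1 or 10 mg/kg/day. The first genotype is named for a transgene of human CYP2B6, a drug-metabolising cytochrome P450, and the second for the loss of the mouse Cyp2b family, so no group of unaltered genotype was among the samples analysed here. Each group held 4 mice, except for 5 males in the untreated hCYP2B6-Tg group and 3 in the Cyp2b-null group of the top dose, which gave 17, 16 and 15 mice per dose. The sources used here do not give the age of the mice, the vehicle at 0 mg/kg/day or the promoter of the human gene.

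Lysosomes break down proteins, glycogen, lipids and membranes delivered by endocytosis and autophagy, and skeletal muscle depends on them for the turnover of glycogen and damaged organelles. The vacuolar proton pump acidifies the lumen: its peripheral V1 sector hydrolyses ATP and its membrane V0 sector carries the protons. Cathepsins and other hydrolases work in that acid, Lamp proteins coat the inside of the membrane, Npc1 and Npc2 hand cholesterol out of the organelle, and Tfeb and Tfe3 bind promoters of many of these genes.

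Library totals were 11571142 to 19921061 counts. The extraction text of the labels names liver, while the tissue field names gastrocnemius. The summed level of 12 muscle fibre markers (led by Myh4, Atp2a1 and Acta1) was 176388 to 235998 CPM at 0 mg/kg/day and 107999 to 193652 at 10 (CPM are read counts on scaled library sizes, brought to a common total), and that of 12 liver markers was 1.30 to 57.8 CPM at 0, 1.40 to 3757 at 1 and 5.60 to 209 at 10. Of 6 tested liver markers 3 were higher at the top dose. Of the 48 libraries 6 stood apart, 1 for at least 1000 counts of Alb and the other five for at least 40 counts of the lymph node gene Glycam1, and 4 of them were from 10 mg/kg/day. Within every combination of genotype and sex, the numbers that name the libraries were lowest at 0 and highest at 10 mg/kg/day with no overlap, so handling in that order and dose cannot be told apart. In whole muscle, fewer cells of a type and less RNA per cell cannot be told apart either.

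Levels at 0 mg/kg/day, set on a scale per kilobase of the deposited gene length, spanned a wide range among genes whose proteins share an organelle. Psap, the precursor of the saposins that help lipid hydrolases, was the highest at 305 ± 18.8 CPM per kilobase (SD, n = 17). Lamp1, a major membrane glycoprotein, followed at 162 ± 7.97, then the aspartic protease Ctsd at 119.4 ± 10.1 and the pump subunit Atp6v1g1 at 118.3 ± 15.0 CPM per kilobase, and this last pair did not differ beyond its spread. Tfe3 was the lowest at 1.05 ± 0.168 CPM per kilobase, next to the aminopeptidase Ctsh at 1.26 ± 0.498, the pump regulator Atp6v1h at 1.55 ± 0.208 and the cysteine protease Ctss at 1.58 ± 1.34, and the ranges of these 4 overlapped. Subunits of 1 pump therefore lay between 1.55 (Atp6v1h) and 118.3 (Atp6v1g1) CPM per kilobase. The deposited length is that of the gene model and can differ from that of the transcripts present, so the order and span depend on it. Without that division Atp6v1h was at 11.5 to 18.3 CPM and Atp6v1g1 at 106.6 to 168.9 at 0 mg/kg/day.

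Promoters were read because Tfeb and Tfe3, which are members, bind a sequence built on the letters CACGTG. RefSeq promoter windows (GRCm38.p6, 250 bases before to 50 after a start) matched 28 of the 35 genes with 35 windows. Atp6v1b2, Atp6v1c1, Atp6v1g1, Atp6v1h, Ctsb, Ctsh and Npc1 had no entry. CACGTG, which reads the same on both strands, was in 11 of the 35 windows (31.4%) and in 7.15% of 32851 windows of all genes. TCACGTG, searched on both strands and always overlapping the first motif, was in 25.7% of the members' windows and 3.77% of all. TCATGTG, a related motif searched on both strands, was in 11.4% and 3.77%. The following stretches before the RefSeq start, which can differ from the gene's end in the count table and for Ctsl lies inside its span there, are printed 5′ to 3′ on the gene's strand with CACGTG in capitals. They show the letters in 3 genes that the results turn on and in 2 others with several copies.
Ctsl, chr13:64370731-64370770, minus strand: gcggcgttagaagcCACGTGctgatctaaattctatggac
Gaa, chr11:119267803-119267848, plus strand: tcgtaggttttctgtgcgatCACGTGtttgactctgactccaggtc
Atp6v0b, chr4:117887330-117887385, minus strand: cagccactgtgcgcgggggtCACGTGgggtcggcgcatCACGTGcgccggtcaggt
Lamp1, chr8:13159080-13159160, plus strand: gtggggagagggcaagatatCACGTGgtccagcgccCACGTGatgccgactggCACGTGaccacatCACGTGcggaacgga
Mcoln1, chr8:3500428-3500499, plus strand: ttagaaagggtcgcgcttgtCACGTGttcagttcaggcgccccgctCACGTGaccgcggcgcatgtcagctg
A match is a description of these windows, not a site that was shown to be bound.

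With the 4 combinations of genotype and sex (the strata) weighted equally, and 10 compared with 0 mg/kg/day, 15 members were higher, 8 were lower and 12 did not pass. Passing means an adjusted p under 0.05 in edgeR's quasi-likelihood test with Benjamini-Hochberg adjustment over all genes tested, and p-values measure the spread between mice. The members' 65.7% stands beside 47.5% of all genes, of which 25% were higher and 22.5% lower. Among 8107 genes with an average log2 CPM of at least 3, a level that 32 members reached, 60.8% passed, as did 22 of those 32 members. The number of members that passed was thus near that of genes of like abundance, and the results below are about which members moved and how far. The median log2 fold change was 0.11 over the members and 0.04 over all genes. Of the 15 rises 6 were at least 0.5 on the log2 scale (Ctss, Ctsl, Npc1, Gaa, Atp6v1h and Lamp2), and of the 8 falls 0 were, the largest being -0.29. The calls of falls depend on the scaling of libraries. With DESeq2 size factors the same 8 members were lower. On unscaled totals, where the median over all genes moves from 0.04 to 0.25, 27 members were higher and 0 lower. Of all 15583 genes 7519 were higher on those totals and 1647 lower. Composition moved with dose too: mitochondrial genes took 8.65 to 13.0% of counts at 0 and 5.53 to 9.78% at 10, and the 20 most abundant genes 33.5 to 39.1% and 25.97 to 35.5%. Their part in the members' values was not tested beyond the alternative library sizes without these genes, which gave 18 higher and 4 lower. Over all genes that setting gave 5282 higher and 2596 lower. The 4 lower members were Psap at -0.21, Atp6v0b at -0.16, Atp6v0a1 at -0.16 and Atp6ap1 at -0.14. The 15 genes higher after scaling were among those 27. No member had all 15 libraries at 10 mg/kg/day above or all below the 17 at 0, beside 0.27% of all genes above and 0.738% below.

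**Figure D1:**
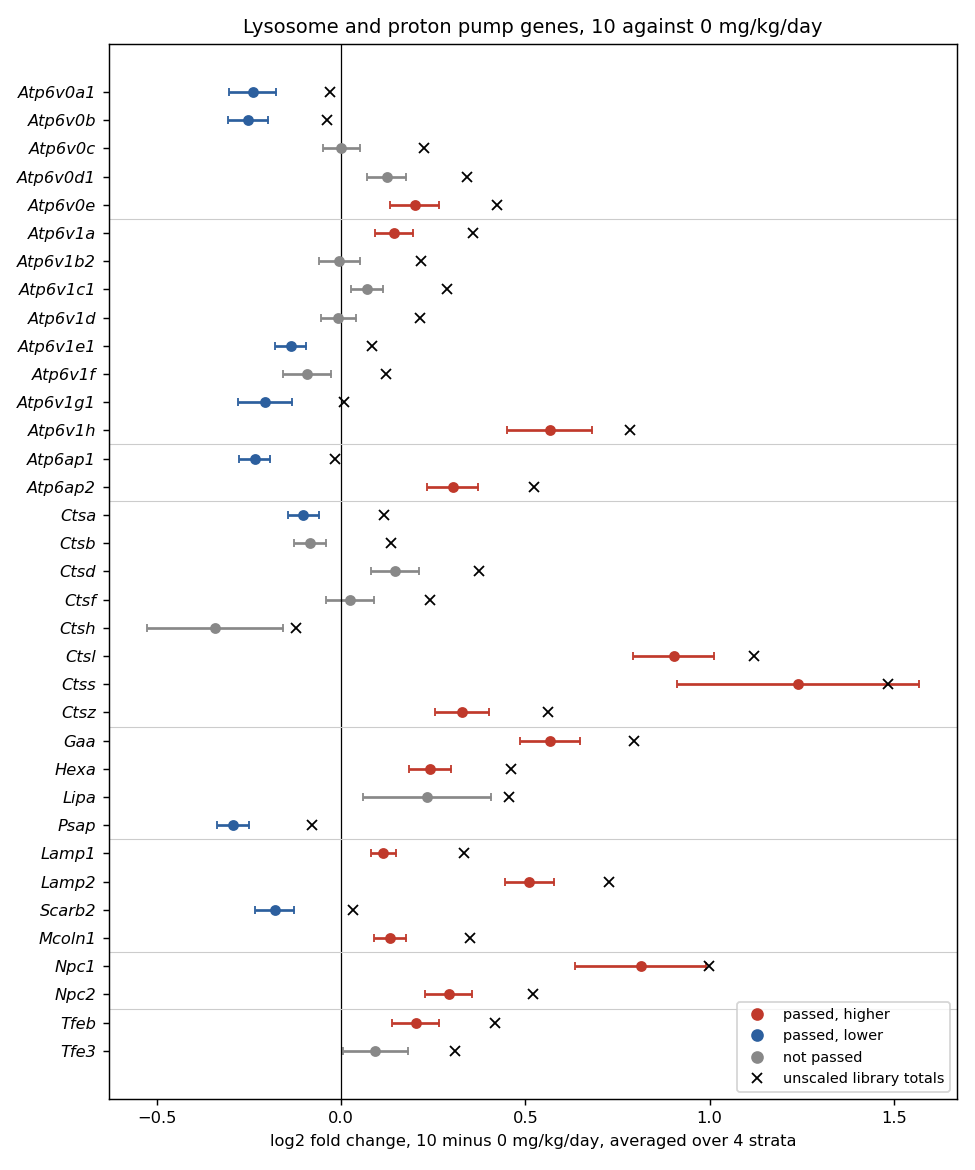
Log2 fold change of each of the 35 genes between the top dose and 0, as the mean of 4 strata, with bars of 1 standard error and crosses for the value on unscaled library totals. The 15 genes in red were higher and the 8 in blue lower after scaling. On unscaled totals the 8 in blue lie between -0.08 and 0.12, 7 of them without passing, and 4 of them above 0.

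The proton pump had members moving both ways: 4 of its 15 genes were higher, 5 lower and 6 did not pass, with a median of -0.01. The largest change was in Atp6v1h, the regulatory H subunit that couples the sectors. It was at 11.5 to 18.3 CPM with a median of 15.4 at 0 mg/kg/day, at 10.7 to 20.5 with a median of 15.3 at 1, and at 13.1 to 73.1 with a median of 19.5 at 10. Of the 15 libraries at the top dose 11 were above every library at 0, and the value of 73.1 belonged to a single hCYP2B6-Tg female. The log2 fold change of Atp6v1h was 0.57 ± 0.12 (SE, edgeR adjusted p = 0.00010), and 0.41 without that mouse. The other three rises were small: 0.30 ± 0.07 for Atp6ap2, the accessory protein also known as the prorenin receptor, 0.20 ± 0.07 for Atp6v0e, and 0.14 ± 0.05 for Atp6v1a, the catalytic subunit. Atp6v1a was no longer called when replicate 2 of the top-dose hCYP2B6-Tg females was left out (log2 fold change 0.11, edgeR adjusted p = 0.051) or without Cyp2b-null female replicate 3 at that dose (0.12, 0.053).

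The falls in the pump lay between -0.14 and -0.25. Atp6v0b, a proteolipid of the proton-carrying ring, was at 42.1 to 62.8 CPM (median 52.9) at 0 mg/kg/day, 47.6 to 62.5 (median 54.5) at 1 and 36.3 to 56.2 (median 43.2) at 10. Its ranges overlapped, with 4 of 15 libraries at the top dose below every library at 0, and the change on the log2 scale was -0.25 ± 0.05 (edgeR adjusted p = 0.00017). Atp6ap1, an accessory protein that assists assembly of the pump, was at 93.7 to 122.7 CPM (median 109.5) at 0, 91.6 to 129.5 (median 110) at 1 and 83.4 to 116.1 (median 90.7) at 10, with 9 of 15 libraries below every library at 0. On the log2 scale its change was -0.23 ± 0.04 (edgeR adjusted p = 1.4e-05). The others that were lower were Atp6v0a1, a subunit of the proton path, at -0.24 ± 0.06, Atp6v1g1 at -0.21 ± 0.07 and the stator subunit Atp6v1e1 at -0.14 ± 0.04. On unscaled totals none of these 5 was called, at -0.04 for Atp6v0b, -0.02 for Atp6ap1, -0.03 for Atp6v0a1, 0.0070 for Atp6v1g1 and 0.085 for Atp6v1e1. The subunits that did not pass had values of 0.12 (Atp6v0d1), 0.07 (Atp6v1c1), -0.00 (Atp6v0c, the main ring protein), -0.01 (Atp6v1b2), -0.01 (Atp6v1d) and -0.09 (Atp6v1f). Reads of Atp6v0c may be shared with its pseudogenes, which held 347 and 9 counts over all libraries. The ratio of Atp6v1h to Atp6v0b within a library does not depend on scaling. The pair, the largest rise and the largest fall in the pump, was picked after the values were seen, so some separation was built in. The ratio was 0.200 to 0.377 at 0 mg/kg/day and 0.273 to 1.63 at 10, where 11 of 15 libraries exceeded every library at 0.

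Among the 8 cathepsins 3 were higher, 1 was lower and 4 did not pass. Ctsl (chr13:64359337-64370890, GRCm38, minus strand), a cysteine protease active on proteins delivered by autophagy, was at 70.9 to 129.5 CPM with a median of 98.4 at 0 mg/kg/day, 68.0 to 135 with a median of 98.2 at 1, and 109.1 to 575 with a median of 143.7 at 10. All 15 libraries at the top dose were above the median at 0, and 12 were above every library at 0. By sex, females were at 101.4 to 129.5 CPM at 0 and 109.1 to 575 at 10, which overlapped. Males were at 70.9 to 98.4 and 114.1 to 209, which did not. The share of all genes that separate the doses within a sex was not counted. The change of Ctsl on the log2 scale was 0.90 ± 0.11 (edgeR adjusted p = 1.1e-08), the smallest p among the members. The 2 highest values, 575 and 331 CPM, were both from hCYP2B6-Tg females. Ctss, a cysteine protease made largely by antigen-presenting cells, had the largest fold change and the widest error, 1.24 ± 0.33 (edgeR adjusted p = 0.0019). It was at 0.131 to 7.66 CPM (median 1.495) at 0 mg/kg/day, 0.453 to 3.96 (median 2.40) at 1 and 1.12 to 13.97 (median 2.78) at 10. Of its libraries at the top dose 3 were above every library at 0, each among the 6 that stood apart. Ctsz, an exopeptidase, was higher by 0.33 ± 0.07, though the gene overlaps Nelfcd on the opposite strand, which had 106% as many counts, and the sources used here do not say whether counting used strand. Ctsa, the protective carboxypeptidase, was at -0.10 ± 0.04 (edgeR adjusted p = 0.040). Leaving out any of 11 single libraries ended that call (adjusted p up to 0.083), and on unscaled totals Ctsa was higher by 0.12. The abundant Ctsb and Ctsd did not pass at -0.08 ± 0.04 and 0.15 ± 0.06, nor did Ctsf at 0.02 ± 0.07 and Ctsh at -0.34 ± 0.18. Ctsb overlaps Fdft1 (35.6% as many counts) and Ctsa overlaps Neurl2 (16.6%) and Pltp (11.0%), all on the opposite strand.

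The proteases thus changed unequally within libraries. The ratio of Ctsl to Ctsb, a pair picked after their values were seen, was 0.240 to 0.402 at 0 mg/kg/day, 0.222 to 0.448 at 1 and 0.353 to 1.93 at 10. In 14 of 15 libraries at the top dose it exceeded every library at 0, and scaling has no part in it. The ratio of Ctsl to Ctsd overlapped more: it was 0.231 to 0.467 at 0, 0.223 to 0.535 at 1 and 0.368 to 1.56 at 10, with 9 of 15 libraries at the top dose and 3 of 16 at 1 mg/kg/day above every library at 0.

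The values of Ctss stand beside those of other cell types. Of 15 tested macrophage markers 9 were higher and 0 lower, with Lyz2 at 0.52 ± 0.22, Csf1r at 0.57 ± 0.26 (not passed) and Mrc1 at 0.01 ± 0.19 (not passed). Their summed level was 16.2 to 135.8 CPM at 0 mg/kg/day and 48.1 to 155 at 10, and their mean log2 CPM rose by 0.58 (permutation within strata, adjusted p = 0.0283 over 5 marker lists). Without the 6 libraries that stood apart that difference was 0.43 (permutation, adjusted p = 0.175). Of 12 tested neutrophil and lymphocyte markers 11 were higher, summed at 1.20 to 64.6 CPM at 0 and 0.886 to 108.2 at 10, and without the 6 libraries 1 was higher and 1 lower. By limma voom 2 were higher and 1 lower, and the difference in their mean log2 CPM was 0.75 (permutation, adjusted p = 0.166). With the macrophage markers as a covariate the log2 fold change of Ctss was 0.40 (edgeR adjusted p = 0.14), with the adipocyte markers 0.70 (0.14), with the neutrophil and lymphocyte markers 0.77 (0.025), and without the 6 libraries 0.79 (0.051). Ctsl was 0.93, 0.97, 0.93 and 0.92 in the same fits, each passing. The macrophage and adipocyte markers moved with dose themselves, so fits with them as covariates cannot tell them and dose apart. Ctsh, which did not pass without a covariate, passed as lower with the macrophage (-0.68, edgeR adjusted p = 0.00034), adipocyte (-0.62, 0.016) and neutrophil and lymphocyte markers (-0.48, 0.028), and was at -0.43 (0.081) without the 6 libraries.

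Of the hydrolases and their activator, 2 were higher, 1 lower and 1 did not pass. Gaa (chr11:119267887-119285454, GRCm38, plus strand), the acid glucosidase that degrades glycogen in the lysosome, was at 249 to 345 CPM with a median of 317 at 0 mg/kg/day, 234 to 381 with a median of 319 at 1, and 303 to 594 with a median of 451 at 10. At the top dose 13 of 15 libraries were above every library at 0, and the change on the log2 scale was 0.57 ± 0.08 (edgeR adjusted p = 2.6e-07). Hexa, a subunit of the enzyme that degrades gangliosides, was higher by 0.24 ± 0.06, and Lipa, the acid lipase, was at 0.23 ± 0.17 without passing. Psap (chr10:60277627-60302597, GRCm38, plus strand) went the other way. It was at 751 to 915 CPM with a median of 835 at 0, 724 to 916 with a median of 856 at 1, and 623 to 865 with a median of 679 at 10. In 14 of 15 libraries at the top dose Psap was below every library at 0, and the change on the log2 scale was -0.29 ± 0.04 (edgeR adjusted p = 4.9e-07). On unscaled totals Psap was at -0.08 without passing (edgeR adjusted p = 0.064). With library sizes free of mitochondrial and the 20 most abundant genes Psap was at -0.21 (edgeR adjusted p = 5.1e-05). The ratio of Gaa to Psap, picked after the values were seen and free of scaling, was 0.313 to 0.432 at 0 mg/kg/day, 0.310 to 0.437 at 1 and 0.422 to 0.924 at 10, above every library at 0 in 14 of 15.

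**Figure D2:**
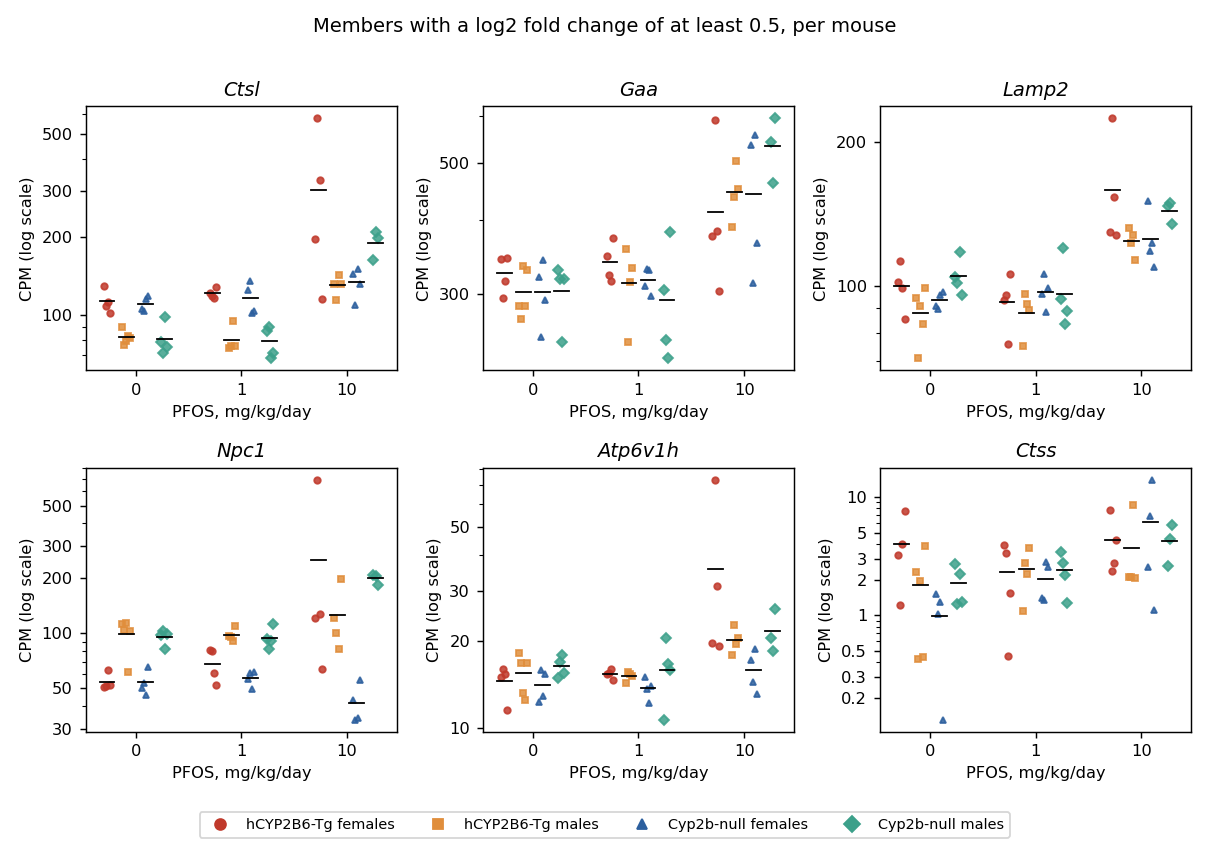
CPM of the 6 genes that passed with a log2 fold change of at least 0.5, on a log axis, by PFOS dose, with 1 point per mouse, symbols for genotype and sex, and black lines for group means. Ctsl, Gaa and Lamp2 at 10 mg/kg/day are mostly above the mice at 0, while Npc1 is low in Cyp2b-null females and reaches 694 CPM in 1 hCYP2B6-Tg female.

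Of the membrane proteins 3 were higher and 1 was lower. Lamp2 (chrX:38401357-38456454, GRCm38, minus strand), the Lamp protein needed for fusion and for chaperone-mediated autophagy, was at 70.8 to 117.95 CPM with a median of 96.0 at 0 mg/kg/day, 74.9 to 120 with a median of 93.9 at 1, and 109.9 to 224 with a median of 130 at 10. All 15 libraries at the top dose exceeded the median at 0 and 13 exceeded every library there, with a log2 fold change of 0.51 ± 0.07 (edgeR adjusted p = 3.9e-08). Its abundant relative Lamp1 was higher by 0.11 ± 0.03 and the calcium channel Mcoln1 by 0.13 ± 0.04. Scarb2, the receptor that carries glucocerebrosidase to the lysosome, was lower by 0.18 (log2 fold change -0.18 ± 0.05), and at 0.031 without passing on unscaled totals. The ratio of Lamp2 to Lamp1 was also picked after the values were seen. It was 0.173 to 0.278 at 0 and 0.229 to 0.525 at 10, with 8 of 15 libraries above every library at 0.

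Both cholesterol exporters were higher. Npc1, the membrane transporter, was at 45.8 to 113.9 CPM (median 65.8) at 0 mg/kg/day, 49.8 to 112.97 (median 81.5) at 1 and 33.8 to 694 (median 121.7) at 10. The spread at the top dose was the widest of any of these genes: 8 libraries were above every library at 0 and 3 were below every one. The averaged log2 fold change was 0.81 ± 0.18 (edgeR adjusted p = 0.00023), and 0.50 without hCYP2B6-Tg female replicate 2, which still passed. Npc1 overlaps Rmc1 on the opposite strand, which had 12.3% as many counts. Npc2, the soluble partner that passes cholesterol to Npc1, was higher by 0.29 ± 0.06 (edgeR adjusted p = 0.00027), with all 15 libraries at the top dose above the median at 0.

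Adipocyte markers moved with dose as well, and Npc2 and Ctsz beside them. Of 19 adipocyte markers 14 were higher and 2 lower, and their mean log2 CPM went from 2.87 ± 0.855 (SD, n = 17) to 4.34 ± 1.11 (SD, n = 15; permutation, adjusted p = 0.003). Their summed level, which the muscle-expressed Car3, Gpd1 and Pnpla2 lead, was 2780 to 5963 CPM at 0 and 2365 to 4979 at 10, so the sum and the mean differed in direction. With that mean as a covariate Npc2 was at 0.10 (edgeR adjusted p = 0.18) and Ctsz at 0.15 (0.13), neither passing, while Lamp2 was at 0.53 and Gaa at 0.49, both passing. Of the members that were lower, Atp6v1g1 (-0.09, edgeR adjusted p = 0.42), Atp6v1e1 (-0.05, 0.39), Scarb2 (-0.10, 0.19) and Ctsa (-0.09, 0.19) did not pass with it either. Muscle fibre markers had 1 higher and 7 lower of 12, and their part in the members' values was not tested.

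Of the transcription factors, Tfeb was at 62.5 to 116.5 CPM (median 94.6) at 0 mg/kg/day, 70.4 to 124.6 (median 98.1) at 1 and 85.5 to 131.6 (median 101.7) at 10. On the log2 scale its change was 0.20 ± 0.06 (edgeR adjusted p = 0.0084), with 6 of 15 libraries above every library at 0. It passed in 1 of the 4 strata. From 0 to 10 mg/kg/day its median went from 102.9 to 90.7 CPM in females and from 83.7 to 112.5 in males. Tfe3, of low level, was at 0.09 ± 0.09 and did not pass. These are transcript levels, and the factors are known to be controlled mainly by phosphorylation and movement into the nucleus, which were not measured. Of the 13 higher members with a promoter window 6 held CACGTG (Atp6v0e, Atp6v1a, Ctsl, Gaa, Lamp1 and Mcoln1), as did 2 of 7 lower members (Atp6v0b and Ctsa) and 3 of 8 that did not pass (Atp6v0d1, Ctsd and Ctsf). The 4 copies before the RefSeq start of Lamp1 and the single copy 236 bases before that of Ctsl stood beside log2 fold changes of 0.11 and 0.90.

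**Figure D3:**
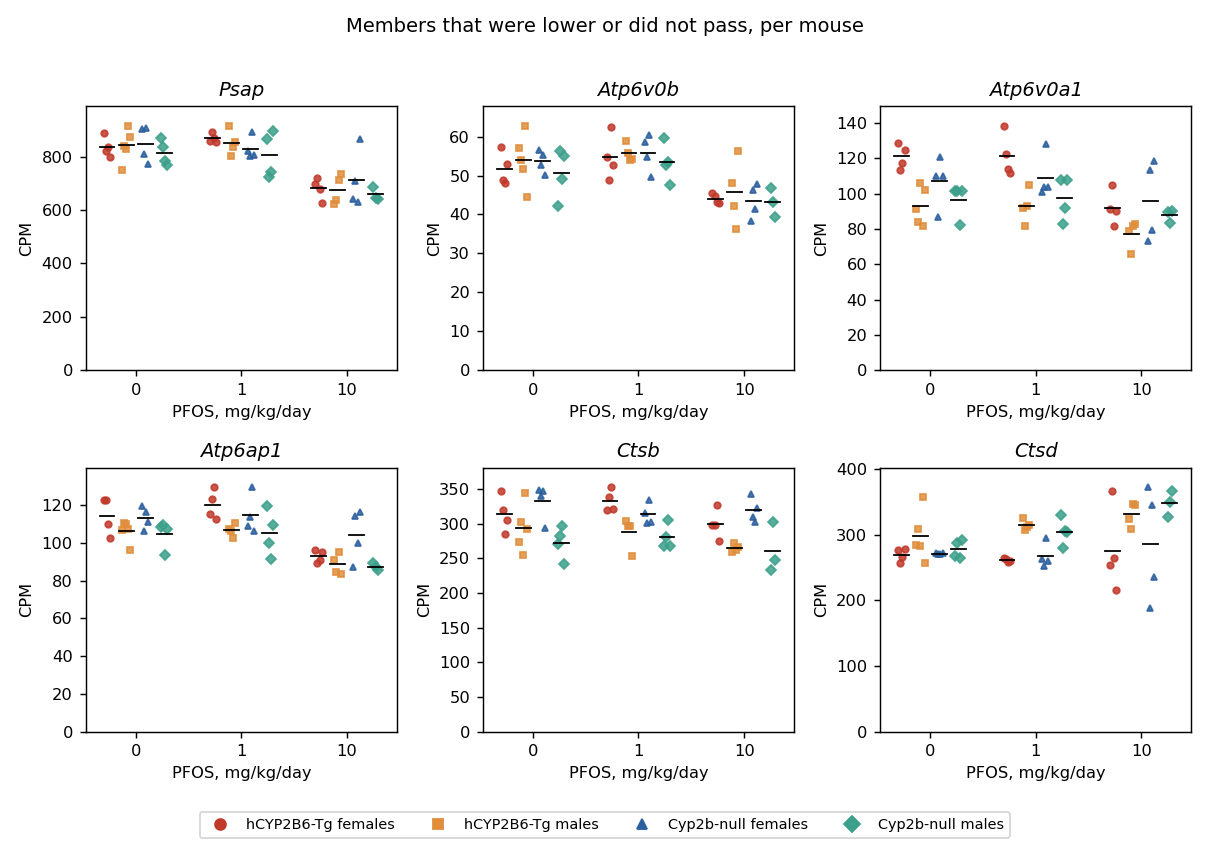
CPM, on axes from 0, of 4 genes that were lower at 10 mg/kg/day after scaling (Psap, Atp6v0b, Atp6v0a1, Atp6ap1) and 2 abundant cathepsins that did not pass (Ctsb, Ctsd), with 1 point per mouse and black lines for group means. Psap is lower in 14 of 15 mice at the top dose than in any mouse at 0, and on unscaled totals none of the 4 falls passed. With library sizes free of mitochondrial and the 20 most abundant genes all 4 passed as lower. Ctsd spreads from 188 to 373 CPM at the top dose.

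Within single strata fewer genes passed, with 3 to 5 mice per group. In hCYP2B6-Tg mice 13 members passed in females, beside 27.7% of all genes, and 9 in males, beside 18.5%. In Cyp2b-null mice 5 passed in females, beside 12.7%, and 10 in males, beside 15.8%. Lamp2 was called higher in each of the 4 strata, at 0.67, 0.50, 0.42 and 0.45 in that order, and Psap lower in each, at -0.30, -0.32, -0.26 and -0.31. No other member passed in all 4, and how many of all genes did so was not counted. Lamp2 and Psap both lost their call in Cyp2b-null females when single libraries of that stratum were left out (adjusted p up to 0.16 and 0.17), as both did in Cyp2b-null males (up to 0.074 and 0.086). On unscaled totals Psap passed in none of the 4 strata, at 0.03 in Cyp2b-null females and -0.17 in Cyp2b-null males. Of the 23 members that passed on average 18 had the same sign in all 4 strata, and over all genes this held for 6116 of 7403.

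Values for several members were unequal between strata, and no test of a sex or genotype difference passed for them in edgeR. Ctsl in hCYP2B6-Tg mice was higher by 1.43 ± 0.22 in females and 0.67 ± 0.21 in males. In Cyp2b-null mice it was higher by 1.24 ± 0.23 in males, and in females it was at 0.28 without passing. Without hCYP2B6-Tg female replicate 2 at the top dose the first value was 0.93, and without hCYP2B6-Tg male replicate 3 the second no longer passed (edgeR adjusted p = 0.068). Npc1 was higher by 2.21 ± 0.37 in hCYP2B6-Tg females (0.95 without replicate 2), by 1.07 ± 0.38 in Cyp2b-null males, at 0.34 in hCYP2B6-Tg males and at -0.37 in Cyp2b-null females. Its 4 Cyp2b-null females at the top dose were at 33.8 to 55.3 CPM and the 3 Cyp2b-null males at 184.5 to 210. In Cyp2b-null males the call of Npc1 ended when any 1 of 7 libraries was left out (adjusted p up to 0.11). Gaa passed in both sexes of the Cyp2b-null mice (0.55 in females, 0.81 in males) and in hCYP2B6-Tg males (0.56), and was at 0.35 in hCYP2B6-Tg females (0.12 without replicate 2 of the top dose). Any of 3 single libraries, left out, ended its call in Cyp2b-null females. Ctss passed in 1 stratum, Cyp2b-null females (2.65 ± 0.70), and not without replicate 3 of the top dose there (1.84, adjusted p = 0.12).

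**Figure D4:**
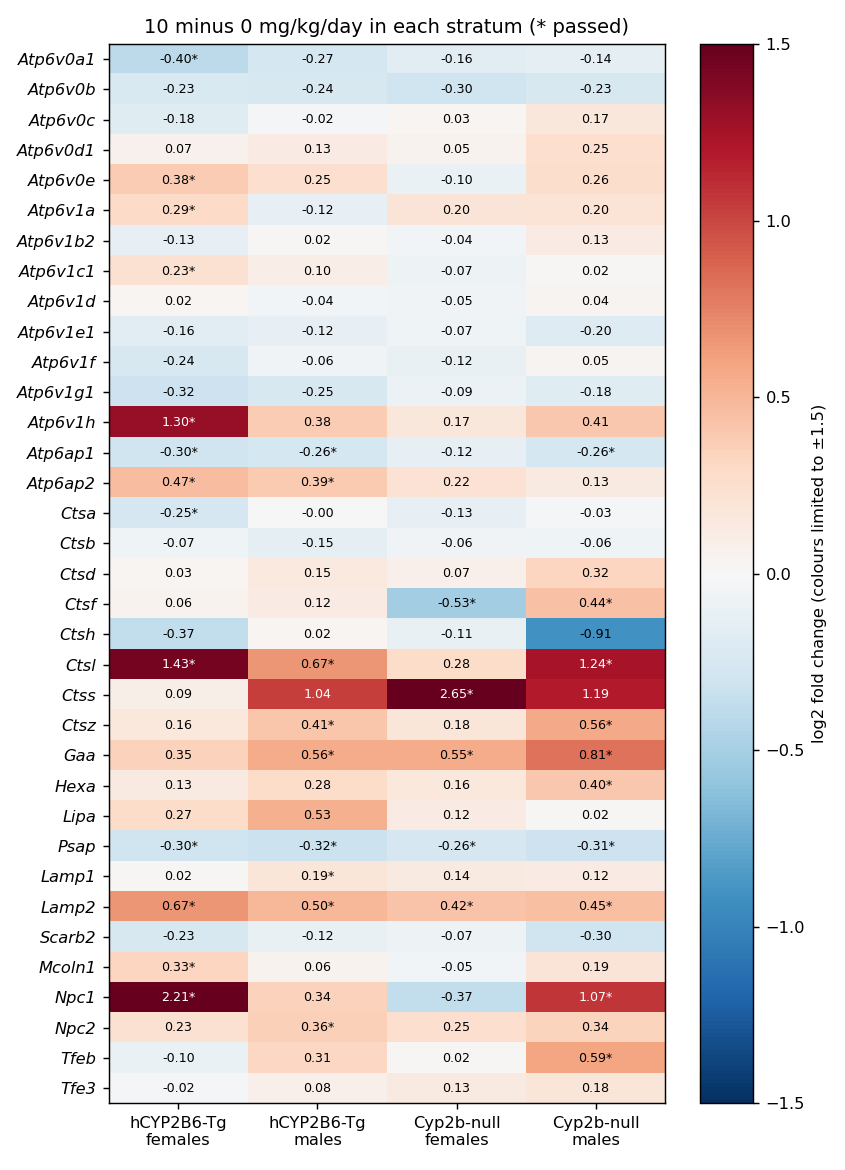
Log2 fold change of each gene at 10 against 0 mg/kg/day in the 4 strata, with an asterisk where edgeR's adjusted p was under 0.05 and colours limited to 1.5 either way. Lamp2 is positive and Psap negative with an asterisk in every column after scaling (Psap is at 0.03 in Cyp2b-null females on unscaled totals), and Ctsf has asterisks of opposite sign in Cyp2b-null females and males.

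Whether the effect of 10 mg/kg/day differed between the sexes was tested directly. By edgeR 0 members passed, beside 0.128% of all genes, with 4 at an unadjusted p under 0.05. DESeq2 and limma voom each called 2, Ctsf and Tfeb. Ctsf, a cysteine protease, had an effect larger by 0.52 ± 0.13 in males (edgeR adjusted p = 0.093, DESeq2 0.038, limma voom 0.0019), and Tfeb one larger by 0.49 ± 0.13 (0.11, 0.037 and 0.045). Females had Ctsf at 25.5 to 30.6 CPM at 0 and 16.5 to 35.1 at 10 mg/kg/day, and males at 18.1 to 24.7 and 23.0 to 29.7. In Cyp2b-null females Ctsf was lower by 0.53 (log2 fold change -0.53 ± 0.13; -0.23 without passing on unscaled totals), and in Cyp2b-null males higher by 0.44 ± 0.14 (a call that 4 single libraries, left out, ended). In hCYP2B6-Tg mice Ctsf passed in neither sex. There it was at 0.06 in females, and males were at 18.6 to 24.0 CPM at 0 and 23.0 to 24.9 at 10. Whether the sex difference in Ctsf is unequal between genotypes was not tested. Tfeb in females was at 91.8 to 116.5 CPM at 0 and 85.5 to 126.5 at 10, and in males at 62.5 to 104.3 and 99.9 to 131.6. For the genotypes 0 members passed, beside 0% of all genes, with 5 at an unadjusted p under 0.05 and 0 by DESeq2. The lowest p there was for Npc1, whose effect was smaller by 0.93 in the null mice (log2 difference -0.93 ± 0.36, edgeR adjusted p = 0.46). Without replicate 2 of the top-dose hCYP2B6-Tg females that difference was -0.30 (edgeR adjusted p = 0.73).

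At 0 mg/kg/day the sexes differed in 6 members, beside 7.59% of all genes. Npc1 was higher in males by 0.84 ± 0.25 (61.5 to 113.9 CPM in 9 males and 45.8 to 65.8 in 8 females), and Atp6v1a by 0.34 ± 0.07 (27.8 to 34.6 and 22.8 to 27.0 CPM). The Atp6v1a ranges did not overlap, while those of Npc1 did. Ctsl was not among the 6, though its ranges did not overlap either (101.4 to 129.5 CPM in females and 70.9 to 98.4 in males). The share of all genes whose ranges keep the sexes apart at 0 was not counted. DESeq2 called 8 members between the sexes at 0 and limma voom 10. Ctsf, Tfeb, Ctsa and Ctsb were lower in males, by -0.35 ± 0.09, -0.31 ± 0.09, -0.22 ± 0.06 and -0.19 ± 0.06 on the log2 scale. Without Cyp2b-null female replicate 3 the call of Npc1 ended (edgeR adjusted p = 0.054), 3 single libraries ended that of Tfeb (up to 0.063) and 11 that of Ctsb (up to 0.12). Between the genotypes at 0 mg/kg/day 0 members passed in edgeR, beside 0% of all genes, with 1 (Ctss) at an unadjusted p under 0.05 and 0 by DESeq2 and limma voom.

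No difference was detectable at the lower dose with 16 against 17 mice. At 1 against 0 mg/kg/day 0 of the 35 passed in edgeR, beside 0% of all genes, and 0 had an unadjusted p under 0.05. DESeq2 and limma voom also called 0. The largest member value was that of Ctss at 0.26 ± 0.33, while Ctsl was at 0.03 ± 0.11, Gaa at 0.03 ± 0.08, Lamp2 at -0.04 ± 0.07 and Psap at 0.01 ± 0.04. In single strata 0 members passed as well, beside 0% of all genes in females and 0.0128% in males of the hCYP2B6-Tg mice, and 0% in females and 0% in males of the Cyp2b-null mice, with 2 members (Atp6v0d1 and Ctsz, in Cyp2b-null males) at an unadjusted p under 0.05. At 10 against 1 mg/kg/day, a comparison that shares the top-dose libraries with the one against 0, 22 members passed, 14 higher and 8 lower, beside 24.7% of all genes higher and 22.2% lower. On unscaled totals 24 were higher and 2 lower, and the number of all genes called there is not given for this comparison. Ctsl was higher by 0.87, Npc1 by 0.71, Atp6v1h by 0.57, Lamp2 by 0.55 and Gaa by 0.53, and Psap was at -0.30.

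Other genes of the pathway, in lists set by function, were called in both directions at 10 against 0 mg/kg/day after scaling, again beside 25% higher and 22.5% lower over all genes. On unscaled totals the balance shifted to higher, and each list's unscaled counts follow its own. These stand beside 7519 higher and 1647 lower of all 15583 genes on that scale. Of 11 tested isoforms and partners of the pump 1 was higher and 4 were lower (4 and 0 unscaled), with Dmxl1 at -0.25 and Dmxl2 at 0.40, both of a complex that assists pump assembly. Of 13 other proteases and inhibitors 4 were higher and 4 lower (8 and 0 unscaled), with the asparagine-specific protease Lgmn at -0.38, the secreted cathepsin inhibitor Cst3 at -0.30 and the cytosolic one, Cstb, at 0.45. Of 34 other hydrolases and activators 10 were higher and 6 lower (22 and 1 unscaled), among them the iduronate sulfatase Ids at 0.44, Aga at -0.34 and the acid sphingomyelinase Smpd1 at -0.23. Of 26 other membrane proteins 9 were higher and 5 lower (17 and 2 unscaled), with Ostm1, a partner of a lysosomal chloride transporter, at -0.63 and the peptide transporter Slc15a4 at 1.19. Of 28 genes that deliver enzymes to lysosomes 13 were higher and 4 lower (20 and 0 unscaled), with the adaptor subunits Ap3b1 at 0.59 and Ap3d1 at 0.36, Gga1 at 0.30 and Gnptg, of the mannose phosphate tag, at 0.38. Of 26 genes that control the Tfeb family 8 were higher and 10 lower (14 and 3 unscaled). These included the kinase Akt1 at 1.05, and, of the complex that holds the mTOR kinase at the lysosome, Lamtor1 at -0.40 and Rragd at -0.59, and the calcineurin subunit Ppp3r1 at -0.28.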

How the data were processed

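The authors deposited raw read counts per gene for the 48 libraries. Per the submitters' processing notes, HISAT2 and GRCm39 were used, without version or role. The table's coordinates are those of GRCm38. The sources used here do not give the counting program or its use of strand, and 0 columns of per-sample values were unused. The members and lists were chosen with earlier results of these data known.

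Genes were filtered with filterByExpr and scaled with TMM in edgeR 4.0.16 (R 4.3.3), with 1 coefficient per group in 12 groups. Quasi-likelihood tests, two-sided, gave 15 contrasts, adjusted by Benjamini-Hochberg over 15583 genes. The filter, scaling and test were run on simulated counts in which few genes changed, equally in both directions. That setting lacks the shift in composition seen here, so it cannot vouch for the scaling. CPM are computed from the deposited counts. Every member is given a value. Levels by library go to members that passed with a log2 fold change of at least 0.5 and to the member of smallest p in each functional group, and would go to any that passed a test of a sex or genotype difference in the dose effect. Up to 4 passing genes of a pathway list, by smallest p, and up to 3 markers of highest level are named. Psap, and genes shown for range or contrast, were added after their values were seen. Mean log2 CPM used a prior count of 2. Alternatives were other scalings and filters, DESeq2 1.42.0, limma 3.58.1 voom, a replicate block, covariates and libraries left out. Replicates were compared in 73 pairs of one group, and their counts differed by at least 7.24 chi-square units per degree of freedom, so each is its own sample.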

Additional observations from a re-analysis of the deposited data

Results flagged for a closer look

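For the 9 members given by library, each group of 4 or 5 mice was searched for a highest or lowest library far from the others (a gap beyond the critical share of the range that chance passes in about 1 of 20 groups). Of 99 combinations of gene and group 11 had such a library, from 10 libraries. Npc1 at the top dose stood at 694 CPM in replicate 2 of the hCYP2B6-Tg females, against 64.2 to 127.95 in the other three, at 63.0 CPM in hCYP2B6-Tg female replicate 3 at 0 (others 50.7 to 52.0), and at 61.5 CPM in hCYP2B6-Tg male replicate 4 at 0 (others 103.4 to 113.9). Ctss was at 8.57 CPM in hCYP2B6-Tg male replicate 3 at 10, against 2.06 to 2.09 in the others, and that library is 1 of the 6 that stood apart. Ctsl was at 94.4 CPM in hCYP2B6-Tg male replicate 3 at 1 mg/kg/day, against 74.5 to 76.1. Gaa was low at 249 CPM in Cyp2b-null male replicate 3 at 0, against 317 to 330, and Atp6ap1 was low in the same library at 93.7 CPM, against 107.2 to 109.5. Atp6ap1 was also low in hCYP2B6-Tg male replicate 5 at 0, at 96.3 CPM against 106.8 to 110.5. Tfeb was high in replicate 1 of 3 groups: 122.3 CPM in hCYP2B6-Tg females at 1 (others 108.3 to 109.6), 120.8 CPM in hCYP2B6-Tg females at 10 (others 85.5 to 91.5) and 128.8 CPM in hCYP2B6-Tg males at 10 (others 99.9 to 101.7).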

How the results depend on the processing

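On unscaled library totals the members called at 10 against 0 mg/kg/day were 27 higher and 0 lower (15 and 8 with scaling), and at 10 against 1 they were 24 and 2. Over all 15583 genes 7519 were higher and 1647 lower at 10 against 0 on those totals (3892 and 3511 with scaling). In single strata the members called on those totals were 18 in males of hCYP2B6-Tg and 18 in females of Cyp2b-null mice. The direction turned for 9 members, with values on unscaled totals of 0.22 (Atp6v0c), 0.22 (Atp6v1b2), 0.21 (Atp6v1d), 0.085 (Atp6v1e1), 0.12 (Atp6v1f), 0.0070 (Atp6v1g1), 0.12 (Ctsa), 0.14 (Ctsb) and 0.031 (Scarb2). The share of called genes that were higher moved from 52.6 to 82.0%, and with library sizes free of mitochondrial and the 20 most abundant genes it was 67.0%. Members lower were then 4 against 0 and 5 against 1. Without the 6 libraries that stood apart they were 5 and 5, with 4 members passing in hCYP2B6-Tg males, 0 in Cyp2b-null females and 5 in Cyp2b-null males, and the macrophage marker difference was 0.43. With the adipocyte covariate members lower were 5 and 5, and 5 passed among hCYP2B6-Tg males, 1 among Cyp2b-null females. The macrophage covariate gave 5 and 0 in those strata, and the neutrophil and lymphocyte covariate, chosen after seeing the data, gave 5 and 3. With no filter on low counts hCYP2B6-Tg mice had 8 in females and 4 in males, and Cyp2b-null mice 3 and 5. With only the compared groups fitted, hCYP2B6-Tg mice had 3 in females and 3 in males, and Cyp2b-null females had 1. limma voom gave 16 in Cyp2b-null males, 10 for the sexes at 0 mg/kg/day and 2 for the sex difference, and DESeq2 gave 2 for the last. The causes of these shifts were not tested.

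Leaving out each library in turn gave 14 to 17 members higher and 7 to 8 lower at 10 against 0, 12 to 15 and 7 to 9 at 10 against 1, 9 to 13 in females and 4 to 10 in males of hCYP2B6-Tg mice, 1 to 6 in females and 4 to 11 in males of Cyp2b-null mice, 3 to 8 for the sexes at 0 and 0 to 1 for the sex difference. With the mouse number as a replicate block 15 were higher and 7 lower. Mice of the same number had a correlation of deviations above 0.1 in 2 of 15 pairs (-0.24 to 0.21), so no sign of pairing by number was seen. With so few mice per group this check could miss a weak pairing. Counts of 2 to 282 per library limit Ctss.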

Other observations

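The 35 members took 0.319 to 0.376% of all counts at 0 mg/kg/day, 0.334 to 0.386% at 1 and 0.375 to 0.541% at 10. These shares are of unscaled totals, on which the median gene was higher as well. At the top dose hCYP2B6-Tg female replicate 2 was the highest of 15 libraries for 11 of the 35 members: Atp6v0d1, Atp6v0e, Atp6v1a, Atp6v1c1, Atp6v1h, Ctsf, Ctsl, Hexa, Lamp2, Npc1 and Tfe3. Its total was 16516841 counts, it had 0 counts of Alb and 0 of Glycam1, and its mean log2 CPM of macrophage markers was 1.49, within the range of 0.95 to 2.67 at that dose. No cause was tested for its position. In the ratio of Npc1 to Npc2 it stood at 21.1, the highest library. The 15 libraries at the top dose had 0.709 to 21.1 with a median of 2.80, and 5 of them were above every library at 0. The other doses had 1.19 to 4.12 (0 mg/kg/day) and 1.503 to 4.39 (1 mg/kg/day).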
